A study of Mus musculus with 9 samples.

Results

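The miR-17-92 cluster and its paralog miR-106b-25 were followed in mouse lung through 9 mature miRNAs. The 6 of miR-17-92 were mmu-miR-17-5p, mmu-miR-18a-5p, mmu-miR-19a-3p, mmu-miR-19b-3p, mmu-miR-20a-5p and mmu-miR-92a-3p, and the 3 of miR-106b-25 were mmu-miR-106b-5p, mmu-miR-93-5p and mmu-miR-25-3p. They were chosen by name and not by their values, out of 1881 mouse miRNAs on the array, and all 9 were among the 404 miRNAs tested. Lung RNA of 9 mice was hybridised to 9 single-colour Agilent arrays, 3 for each of 3 groups. Codonopsis lungs came from mice given Codonopsis pilosula, a plant of traditional Chinese medicine, at 15 g per kg, with 30 days named in the labels. Whether these mice had also been given D-galactose and sodium nitrite is not in their labels, although the treatment text speaks of an ageing model treated with the plant. Model lungs came from mice given D-galactose and sodium nitrite, chemicals used to imitate ageing in young animals, with 42 days named in the labels. Control lungs came from mice with no treatment named. Strain and age are not given in the labels. Codonopsis 1 and 2 and control 1 came from male mice, and codonopsis 3, model 1 to 3 and control 2 and 3 from female mice.

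The miR-17-92 cluster is a polycistron: a single primary transcript, induced by the growth-promoting factors MYC and E2F, is cut into several hairpins that each release a mature miRNA. Its miRNAs favour proliferation and survival by repressing genes such as Cdkn1a and Bcl2l11, they are needed for normal lung growth in the mouse embryo, and they are known to decline when cultured cells become senescent. The paralog miR-106b-25 is processed from an intron of Mcm7, which encodes a subunit of the DNA replication helicase, and a further paralog, miR-106a-363, lies on the X chromosome.

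A miRNA recognises its targets mainly through its seed, bases 2 to 8 from the 5′ end, and the 9 miRNAs fall into 4 seed families. The sequences are shown because several members differ by so few bases that array probes may not tell them apart. They are the RefSeq mature sequences of build GRCm38.p6, 5′ to 3′, with the seed in capitals. All 9 members matched an entry.
The family of miR-17 carries the seed AAAGUGC in 4 members from both clusters and in the X-linked relative miR-20b-5p, the last of these lines.
mmu-miR-17-5p: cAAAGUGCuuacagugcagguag
mmu-miR-20a-5p: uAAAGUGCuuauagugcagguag
mmu-miR-106b-5p: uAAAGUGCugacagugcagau
mmu-miR-93-5p: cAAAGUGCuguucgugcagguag
mmu-miR-20b-5p: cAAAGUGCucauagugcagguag
The miR-18 family has the seed AAGGUGC.
mmu-miR-18a-5p: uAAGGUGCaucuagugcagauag
The miR-19 family has the seed GUGCAAA.
mmu-miR-19a-3p: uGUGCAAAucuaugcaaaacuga
mmu-miR-19b-3p: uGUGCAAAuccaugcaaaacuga
The miR-92 family, with the seed AUUGCAC, again has a member in each cluster.
mmu-miR-92a-3p: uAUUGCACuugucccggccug
mmu-miR-25-3p: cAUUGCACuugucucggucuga

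Counted from 1 at the 5′ end and with the first-named miRNA's base first, miR-19a-3p and miR-19b-3p differ at U11C. Between miR-17-5p and miR-20a-5p the differences are C1U and C12U, and between miR-20a-5p and miR-20b-5p they are U1C and U10C. Whether the probes of such pairs read each other was not tested.

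In GRCm38.p6 the 6 hairpins of miR-17-92 lie within 836 bases of the plus strand of chromosome 14. The mature miR-17-5p is at chr14:115043684-115043706, miR-18a-5p at chr14:115043867-115043889 and miR-19a-3p at chr14:115044048-115044070. Downstream of these follow miR-20a-5p at chr14:115044183-115044205, miR-19b-3p at chr14:115044358-115044380 and miR-92a-3p at chr14:115044476-115044496. The annotation places miR-92a-3p inside the host gene Mir17hg and lists no other gene at the remaining 5. Identical copies of miR-19b-3p and miR-92a-3p are encoded on the minus strand of the X chromosome, at chrX:52741991-52742013 and chrX:52741854-52741874, so their signals can hold transcripts of both loci. The 3 hairpins of miR-106b-25 lie within 498 bases of the minus strand of chromosome 5, inside the span of Mcm7. There miR-106b-5p is at chr5:138165787-138165807, miR-93-5p at chr5:138165574-138165596 and miR-25-3p at chr5:138165332-138165353.

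Between 375 and 484 miRNAs were detected per array, and the 75th percentile of processed signal lay between 394 and 538 on 8 arrays and at 244.5 on control 1. Control 1 stood apart, with a median correlation to the other 8 of 0.886, where theirs were 0.951 to 0.978. Slide 2 held the 3 controls and slide 1 the 6 codonopsis and model arrays, so in comparisons with control the effects of slide and of group cannot be told apart. Male and female mice were on separate rows of slide 1. Of the lung's own markers, all 5 epithelial, both endothelial and all 5 smooth muscle and mesenchymal marker miRNAs were detected on all 9 arrays. Of the markers of other organs, miR-124-3p and miR-9-5p, which mark brain, were detected on none. The third, miR-122-5p, which marks liver, was detected on 3 arrays: codonopsis 1, codonopsis 3 and control 1.

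Of the 9 members, 8 were detected on all 9 arrays and miR-17-5p on 8, missing on control 1. Each was read by 2 probes with 15 spots each, and no spot of these 18 probes was saturated. Levels are log2 of the processed signal (background-corrected intensity) divided by the array's 75th percentile, taken over the 289 miRNAs that every array detected. A level of 0 is therefore that percentile, and a difference of 1 is a doubling. Since probes differ in brightness, levels are compared between arrays and not between miRNAs. In bulk lung, fewer cells of a type and less RNA per cell cannot be told apart.

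The miR-17-92 member miR-17-5p gives its name to the seed family and was read close to background. Its level was −5.48, −5.44 and −5.72 on the codonopsis arrays, −5.45, −5.46 and −5.41 on the model arrays and −5.90, −5.17 and −5.22 on the controls. Controls 2 and 3 were the highest of the 9 arrays and control 1 the lowest, so the control group spanned both others. Of its probes, the dimmer had a processed signal of 0.333 to 4.84 and no spot well above background, and the brighter one of 7.87 to 25.0 with 75.6% of its spots well above background.

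For miR-18a-5p, the only member with the seed AAGGUGC, the levels were −3.99, −3.95 and −3.75 on codonopsis arrays, −3.77, −3.87 and −3.66 on model arrays and −4.13, −3.91 and −3.07 on controls. Control 3 stood highest and control 1 lowest, and all groups overlapped.

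The pair miR-19a-3p and miR-19b-3p shares the seed GUGCAAA. miR-19a-3p stood at −1.81, −1.62 and −1.54 on codonopsis arrays, at −1.47, −1.48 and −1.38 on model arrays and at −1.88, −1.52 and −1.19 on controls. miR-19b-3p stood at 1.05, 1.02 and 1.11 on codonopsis arrays, at 1.25, 1.39 and 1.48 on model arrays and at 0.49, 1.22 and 1.38 on controls. For both, every codonopsis array lay below every model array. Control 1 lay below all other arrays, control 2 between the codonopsis and model ranges, and control 3 above the model range for miR-19a-3p and within it for miR-19b-3p.

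For miR-20a-5p, of the miR-17 family, the levels were 0.04, 0.01 and 0.00 on codonopsis arrays, 0.34, 0.20 and 0.40 on model arrays and −0.28, 0.20 and 0.29 on controls. The codonopsis arrays lay within 0.05 of each other and below the whole model group, and control 1 was again the lowest array. On codonopsis 3 the signal of miR-20a-5p, 399.6, was itself the array's 75th percentile, which makes its level there 0. The same held for miR-25-3p on model 1. The levels of miR-92a-3p were −0.53, −0.54 and −0.61 on codonopsis arrays, −0.40, −0.39 and −0.36 on model arrays and −0.36, −0.29 and −0.30 on controls. Here the 3 groups did not overlap, with codonopsis lowest and control highest. Model and control all but touched, with model 3 at −0.358 and control 1 at −0.355.

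In the miR-106b-25 cluster, miR-106b-5p stood at 0.41, 0.53 and 0.33 on codonopsis arrays, at 0.75, 0.49 and 0.66 on model arrays and at −0.12, 0.46 and 0.58 on controls. Its group ranges overlapped, with control 1 far below the other 8 arrays. For miR-93-5p, which shares the seed of miR-17, the levels were −0.75, −0.59 and −0.72 on codonopsis arrays, −0.53, −0.83 and −0.55 on model arrays and −0.89, −0.73 and −0.68 on controls. For miR-25-3p, which shares the seed of miR-92a, they were −0.14, 0.04 and −0.21 on codonopsis arrays, 0.00, −0.06 and −0.05 on model arrays and −0.35, 0.05 and −0.08 on controls. Both overlapped between all groups, and in both control 1 was the lowest array.

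**Figure D1:**
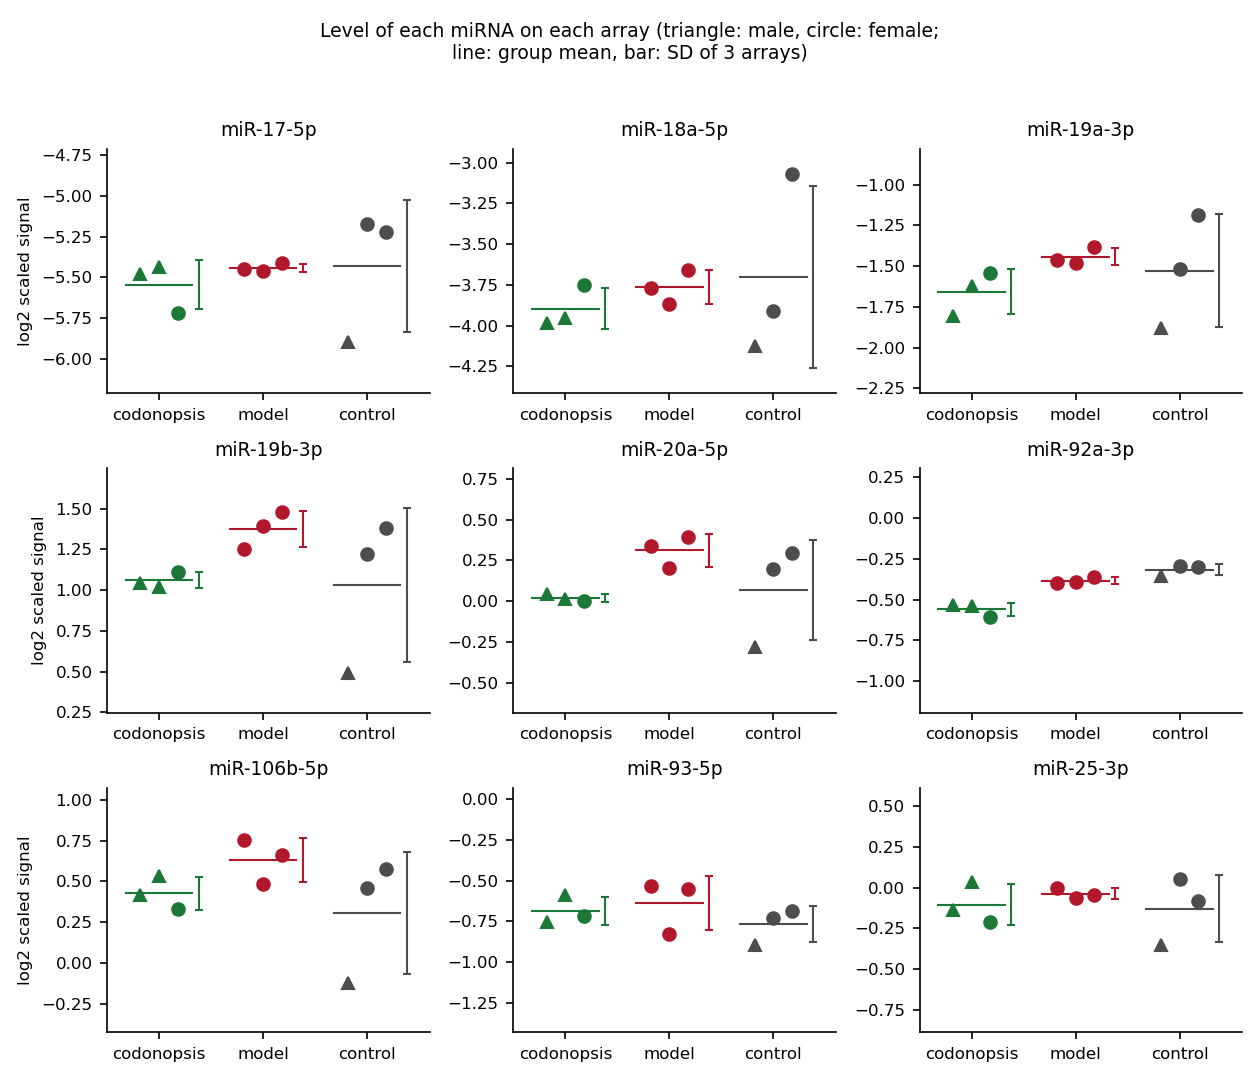
Level of each of the 9 miRNAs (log2 scaled signal, vertical axis, 1.5 log2 units in every panel) on the 3 codonopsis, 3 model and 3 control arrays, with triangles for male and circles for female mice, lines for group means and bars for the SD of 3 arrays. Control 1, the male control, is the lowest array for 8 of the 9 miRNAs and not for miR-92a-3p, and the codonopsis points of miR-19a-3p, miR-19b-3p, miR-20a-5p and miR-92a-3p lie below all model points.

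The comparison of codonopsis with model lungs asks how lungs of mice given the plant differed from model lungs, and all 6 arrays share a slide. All 9 members were lower on average in codonopsis lungs, with log2 differences of −0.31 to −0.05, but none passed the test. The largest difference was that of miR-19b-3p, with 1.06 ± 0.0488 in codonopsis and 1.37 ± 0.113 in model lungs (SD, n = 3 each), a log2 difference of −0.31 (SE 0.228, limma adjusted p = 0.545). For miR-20a-5p the means were 0.02 ± 0.0227 and 0.31 ± 0.0996 (SD, n = 3 each), a difference of −0.29 (SE 0.169, limma adjusted p = 0.488). For miR-19a-3p they were −1.66 ± 0.137 and −1.44 ± 0.0531, a difference of −0.21 (SE 0.186), and for miR-92a-3p −0.56 ± 0.0404 and −0.38 ± 0.0209, a difference of −0.18 (SE 0.104). The other 2 members of miR-17-92 differed less, miR-18a-5p by −0.13 (SE 0.263) and miR-17-5p by −0.10 (SE 0.207).

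In the miR-106b-25 cluster miR-106b-5p differed by −0.21 (SE 0.199), with 0.43 ± 0.101 in codonopsis and 0.63 ± 0.136 in model lungs (SD, n = 3 each). Its neighbours miR-25-3p and miR-93-5p differed by −0.07 (SE 0.144) and −0.05 (SE 0.136). The median of the 3 was −0.07, against −0.20 for the 6 members of miR-17-92, and the difference between the clusters was not tested.

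No member was called by limma in this comparison (smallest adjusted p 0.488), where 0% of the 404 tested miRNAs were called and 43 had an unadjusted p under 0.05, none of them a member. The fit shares 1 estimate of spread over all 9 arrays, so control 1 enters these SEs, intervals and p values. Without control 1 the differences stayed and the SEs fell, to 0.104 for miR-19b-3p and 0.0955 for miR-20a-5p (limma adjusted p = 0.113 and 0.109). Still no member was called, while 35 of the 404 tested miRNAs were. The median difference of the 9 members was −0.18, beside −0.11 over all tested miRNAs, of which 60.4% were lower. The codonopsis arrays lay entirely below the model arrays for 4 of 9 members, all of miR-17-92, against 22.3% of all tested miRNAs, and entirely above for 0 of 9, against 14.9%. The count of 4 moved with the processing. It was 7 when each array was divided by the 75th percentile of all its miRNAs, 2 under quantile normalization and 1 in the deposited log2 table, beside 37.4%, 13.6% and 15.6% of all tested miRNAs, and it was again 4 with normexp background correction and with total gene signal. miR-20a-5p was the 1 member below in all of these. Another setting took the brightest probe of each miRNA in place of the mean of its probes, for the scaling percentile too. The count was then 1, miR-19b-3p, beside 4.21% of all tested miRNAs. In that setting 4 of 9 members were higher, the members' median was −0.0079 and the median over all tested miRNAs turned to 0.07. Relative to the median of all miRNAs the direction also turned: with quantile normalization the members' median of −0.10 lay above the −0.13 of all tested miRNAs, and in the deposited log2 table −0.13 lay above −0.17. Under the reported processing the 95% intervals of the 9 differences reached from −0.84 to 0.48. Each interval is for a single member, and the farthest limit is a 1.79-fold lower level in codonopsis lungs.

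Sex was unequal here, with 2 male codonopsis mice and no male model mouse. With sex as a covariate the members' median difference was −0.01, beside −0.11 over all tested miRNAs, and 3 of 9 were higher. That sex term rests on the codonopsis arrays and on control 1, the array that stood apart, against controls 2 and 3. On slide 1 sex cannot be told apart from slide row. Among female mice alone, which leaves codonopsis 3 against 3 model arrays, the members' median was −0.22, beside −0.15, and 1 of 9 was higher.

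Several marker lists were also lower in codonopsis lungs. All 5 epithelial markers were lower on average (summed scaled signal 8.42 to 9.37 on codonopsis and 9.41 to 11.495 on model arrays), as were all 5 smooth muscle and mesenchymal markers (5.54 to 6.48 against 6.69 to 7.16), all 3 markers of multiciliated cells (1.67 to 4.77 against 2.94 to 5.93) and both endothelial ones (42.2 to 58.6 against 55.4 to 60.1). All 4 erythroid markers were higher, with sums of 26.9 to 49.2 on codonopsis and 24.5 to 40.2 on model arrays. Of the 3 tested leukocyte and myeloid markers 1 was higher (2.40 to 3.72 against 2.47 to 3.95), and of the 4 lymphocyte markers 2 were (1.67 to 2.52 against 1.71 to 2.36). Of the 4 tested heart and striated muscle markers 2 were higher (0.421 to 6.14 on codonopsis against 1.99 to 3.67 on model arrays). None of these markers passed, and their part in the members' values was not tested.

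**Figure D2:**
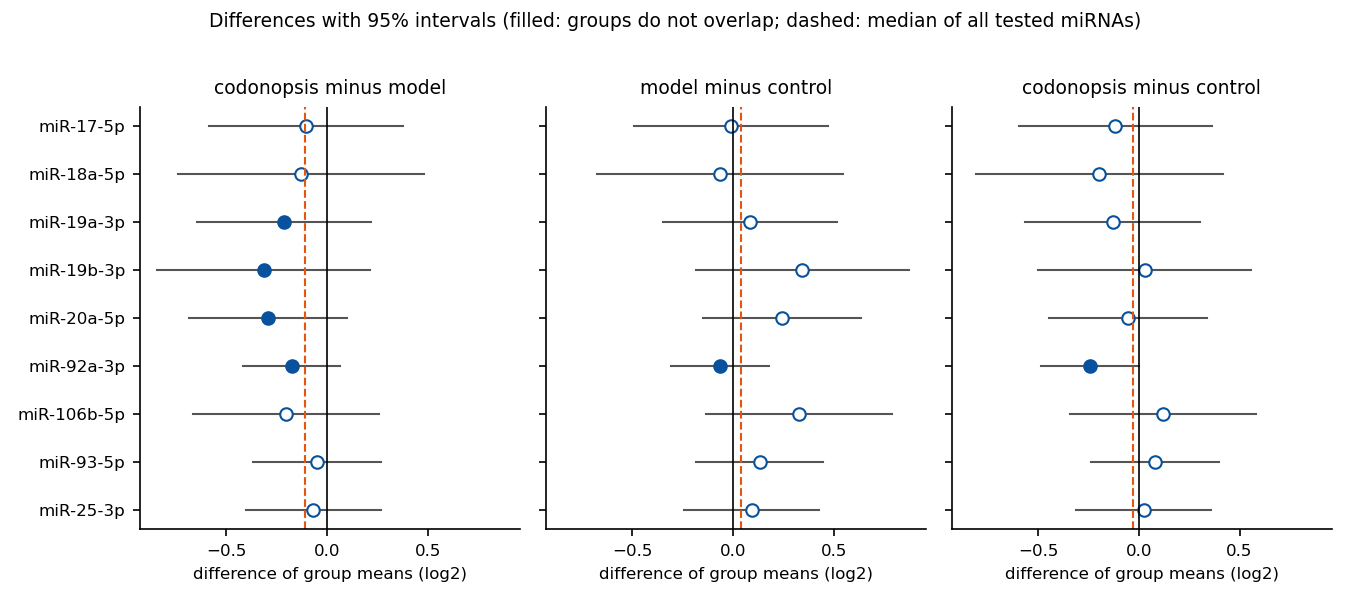
Difference of group means on the log2 scale (horizontal axis) for each of the 9 miRNAs in the 3 comparisons, with 95% intervals from limma, filled points where the 2 groups do not overlap and a dashed line at the median of all 404 tested miRNAs. All 9 points lie left of 0 for codonopsis minus model, with 4 filled, and every interval in that panel spans 0.

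The comparison of model with control lungs asks what differed after D-galactose and sodium nitrite. The miRNAs did not move as 1 block: 6 members were higher and 3 lower on average in model lungs, with log2 differences of −0.07 to 0.34, and none passed. For miR-19b-3p the means were 1.37 ± 0.113 in model and 1.03 ± 0.473 in control lungs (SD, n = 3 each), a log2 difference of 0.34 (SE 0.228, limma adjusted p = 0.545). For miR-106b-5p they were 0.63 ± 0.136 and 0.31 ± 0.373 (SD, n = 3 each), a difference of 0.33 (SE 0.199, limma adjusted p = 0.538). miR-20a-5p differed by 0.24 (SE 0.169), miR-93-5p by 0.13 (SE 0.136), miR-25-3p by 0.09 (SE 0.144) and miR-19a-3p by 0.08 (SE 0.186). The 3 lower members were miR-92a-3p at −0.07 (SE 0.104), miR-18a-5p at −0.06 (SE 0.263) and miR-17-5p at −0.01 (SE 0.207).

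In limma 0% of the 404 tested miRNAs and none of the 9 members were called for model against control (smallest adjusted p among members 0.538). An unadjusted p under 0.05 was reached by 47 miRNAs, none of them a member. The median of the 9 differences was 0.09, beside 0.04 over all tested miRNAs, of which 54.5% were higher. The model arrays lay entirely above the controls for 0 of 9 members, against 14.4% of all tested miRNAs, and entirely below for 1, miR-92a-3p, against 8.91%. Under the reported processing intervals reached from −0.67 to 0.87, so at most a 1.83-fold change of any member was allowed. Single controls moved the median: without control 1 it was −0.02, with 4 members higher and 5 lower, without control 2 it was 0.15, with 7 higher, and without control 3 it was 0.25, with 8 higher, beside 0.06, 0.06 and −0.01 over all tested miRNAs. Without control 1, miR-19b-3p at 0.08 (SE 0.116) and miR-106b-5p at 0.11 (SE 0.127) lay closer to 0. In the same fit miR-17-5p at −0.25 (SE 0.118), miR-18a-5p at −0.28 (SE 0.240) and miR-92a-3p at −0.09 (SE 0.0936) lay farther from it. Among markers, all 5 epithelial miRNAs were higher on average in model lungs (9.41 to 11.495 against 7.77 to 10.2 in control lungs), and all 3 tested leukocyte and myeloid miRNAs were lower (2.47 to 3.95 against 2.26 to 9.53). Of the 5 smooth muscle and mesenchymal miRNAs 4 were lower (6.69 to 7.16 against 6.25 to 8.25), 2 of them with every model array below every control. The endothelial markers moved apart without overlap, miR-126a-3p at 0.39 and miR-126a-5p at −0.89 (limma adjusted p = 0.437 and 0.283), with sums of 55.4 to 60.1 in model and 36.1 to 51.5 in control lungs. Of the 3 multiciliated markers 2 were higher (2.94 to 5.93 against 3.56 to 4.59), of the 4 erythroid ones 2 (24.5 to 40.2 against 29.8 to 36.2), of the 4 lymphocyte ones 2 (1.71 to 2.36 against 1.41 to 2.49) and of the 4 tested heart and striated muscle ones 3 (1.99 to 3.67 against 1.88 to 2.77). No marker passed, and their part in the members' values was not tested.

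Set against control lungs, the averages of the 2 clusters in codonopsis lungs lay on either side, and no member passed. All 3 members of miR-106b-25 were higher on average, miR-106b-5p by 0.12 (SE 0.199), miR-93-5p by 0.08 (SE 0.136) and miR-25-3p by 0.02 (SE 0.144). Of miR-17-92, 5 of 6 were lower, with miR-92a-3p at −0.24 (SE 0.104), miR-18a-5p at −0.20 (SE 0.263), miR-19a-3p at −0.13 (SE 0.186), miR-17-5p at −0.12 (SE 0.207) and miR-20a-5p at −0.05 (SE 0.169), while miR-19b-3p was at 0.03 (SE 0.228). For miR-92a-3p the means were −0.56 ± 0.0404 in codonopsis and −0.32 ± 0.0341 in control lungs (SD, n = 3 each), with every codonopsis array below every control. In limma its unadjusted p was 0.0496 and its adjusted p 0.336, the smallest among members.

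For codonopsis against control limma called 0.99% of tested miRNAs, which are 4 and all higher, and no member, while 58 had an unadjusted p under 0.05, miR-92a-3p among them. The median of the 9 members was −0.05, beside −0.03 over all tested miRNAs. Codonopsis arrays lay entirely below the controls for 1 of 9 members, against 6.93% of all tested miRNAs, and entirely above for 0 of 9, against 5.69%. Under the reported processing intervals reached from −0.81 to 0.58, allowing at most a 1.75-fold change. Without control 1, 8 of 9 members were lower, with a median of −0.24 beside −0.04 over all tested miRNAs, and 2 of the 3 members of miR-106b-25 had turned. Without control 2 the median was 0.01, with 6 members higher, and without control 3 it was 0.06, with 7 higher, beside −0.00045 and −0.01 over all tested miRNAs. Without control 1, miR-18a-5p differed by −0.41 (SE 0.240), miR-17-5p by −0.35 (SE 0.118), miR-19a-3p by −0.31 (SE 0.142), miR-92a-3p by −0.26 (SE 0.0936), miR-19b-3p by −0.24 (SE 0.116) and miR-20a-5p by −0.23 (SE 0.107). In the other cluster miR-106b-5p was at −0.09 (SE 0.127), miR-25-3p at −0.09 (SE 0.116) and miR-93-5p at 0.02 (SE 0.130). None passed without control 1 either, although 46 of all tested miRNAs did. Among markers, all 5 smooth muscle and mesenchymal miRNAs were lower on average in codonopsis lungs (5.54 to 6.48 against 6.25 to 8.25 in control lungs), as were all 3 tested leukocyte and myeloid ones (2.40 to 3.72 against 2.26 to 9.53) and all 3 multiciliated ones (1.67 to 4.77 against 3.56 to 4.59, median difference −0.51). All 4 erythroid markers were higher (26.9 to 49.2 against 29.8 to 36.2, median difference 0.18). Of the endothelial pair miR-126a-3p was at 0.19, and miR-126a-5p lay entirely below the controls at −0.99 (limma adjusted p = 0.0783), with sums of 42.2 to 58.6 in codonopsis and 36.1 to 51.5 in control lungs. Of the 5 epithelial markers 2 were higher (8.42 to 9.37 against 7.77 to 10.2), of the 4 lymphocyte ones 1 (1.67 to 2.52 against 1.41 to 2.49) and of the 4 tested heart and striated muscle ones 2 (0.421 to 6.14 against 1.88 to 2.77). None of these markers passed, and their part was not tested.

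Asked for any difference among the 3 groups, limma's F test gave the members adjusted p values of 0.454, for miR-92a-3p, to 0.879, for miR-17-5p. Male minus female, with group as a covariate, was negative for 8 of 9 members, with a median of −0.25 beside 0.02 over all tested miRNAs, of which 47.3% were lower. It was −0.44 (SE 0.188, limma adjusted p = 0.182) for miR-19b-3p, −0.43 (SE 0.243) for miR-18a-5p and −0.35 (SE 0.157) for miR-19a-3p, and 0.01 (SE 0.113) for miR-92a-3p. No miRNA was called for sex by limma, 111 had an unadjusted p under 0.05, and the 3 male arrays include control 1.

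Control 1 read low for these miRNAs beyond its scaling. Against the mean of controls 2 and 3 all 9 members were lower, with differences of −0.81 to −0.06 and a median of −0.53, whereas the median over all tested miRNAs was 0.01 and 49.8% were lower. It was the lowest of the 9 arrays for 8 of 9 members and for 28.7% of all tested miRNAs. The shift was smallest for miR-92a-3p at −0.06, miR-93-5p at −0.19 and miR-25-3p at −0.34, the members with the highest GC content at 57.1%, 52.2% and 50%. It was largest for miR-19b-3p at −0.81, with 39.1% GC. The other members did not follow this order. miR-17-5p was at −0.70 with 47.8% GC, miR-18a-5p at −0.64 with 43.5% and miR-106b-5p at −0.64 with 42.9%. miR-20a-5p, also with 39.1%, and miR-19a-3p, with the lowest content of 34.8%, were both at −0.53. Over the 9 members GC content and this shift correlated at r = 0.74 (Spearman 0.55), and over the 328 tested miRNAs with a sequence at r = 0.24 (Spearman 0.40), both as a description on 1 array, with sequences shared between relatives.

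**Figure D3:**
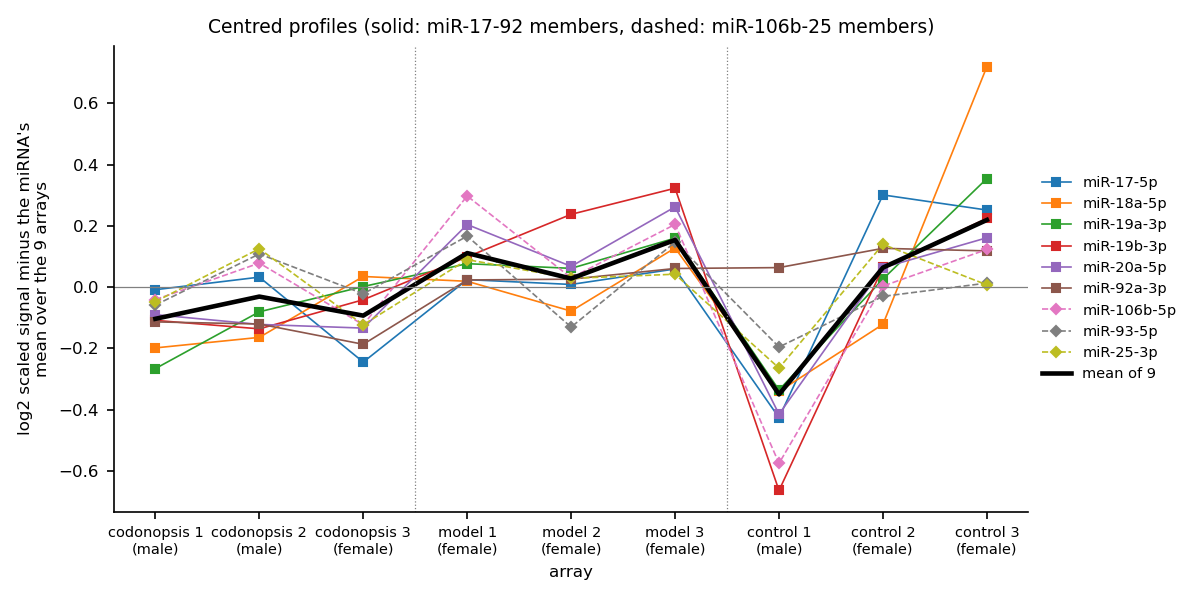
Level of each miRNA on each array minus its own mean over the 9 arrays (log2 units, vertical axis), with solid lines for miR-17-92, dashed lines for miR-106b-25 and a thick line for the mean of the 9. The mean profile lies between −0.10 and −0.03 on codonopsis arrays, between 0.03 and 0.15 on model arrays, and at −0.35, 0.06 and 0.22 on controls 1, 2 and 3.

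Across arrays the members varied together. Over the 36 pairs of members the median Pearson correlation was 0.64 across the 9 arrays and 0.49 without control 1, beside 0.02 and 0.06 over all pairs of miRNAs detected on all arrays. Within a cluster it was 0.67 (0.62 without control 1) and between the clusters 0.53 (0.32 without control 1). The closest pair was miR-19b-3p with miR-20a-5p, neighbours on chromosome 14, at 0.94 (0.87 without control 1), followed by miR-20a-5p with miR-106b-5p, which share a seed and lie in different clusters, at 0.91 (0.81 without control 1). The least alike was miR-92a-3p with miR-93-5p at −0.07 (0.07 without control 1). Without control 1 the least alike pair was miR-18a-5p with miR-25-3p at −0.18. These values describe 9 arrays that share a scaling factor each, and carry no test.

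Changes between clusters within an array do not depend on that scaling. The mean level of miR-106b-25 minus that of miR-17-92 was 1.63, 1.75 and 1.55 on codonopsis arrays, 1.66, 1.47 and 1.51 on model arrays and 1.55, 1.51 and 1.29 on controls. Its size has no meaning across probes. Its group means were 1.64 ± 0.0991, 1.54 ± 0.0982 and 1.45 ± 0.141 (SD, n = 3 each) in codonopsis, model and control lungs. All ranges overlapped, but those of codonopsis and control only just, with codonopsis 3 at 1.551 and control 1 at 1.553. Controls 2 and 3 lay below all codonopsis arrays. These differences between groups were not tested. Taken against the mean of the 9 on each array, miR-20a-5p varied least, with a range of 0.20 over the 9 arrays, and miR-18a-5p most, with 0.68.

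The miRNAs whose levels followed the mean profile of the 9 members most closely across the 9 arrays, among 281 others detected on all arrays, were led by miR-15a-5p at r = 0.97 (Spearman 0.90, r = 0.92 without control 1 and without controls 1 and 3). Next came the seed relative miR-20b-5p at 0.94 (Spearman 0.88, 0.85 without control 1), miR-362-3p at 0.93 (Spearman 0.92, 0.85 without control 1), miR-16-5p at 0.93 (Spearman 0.78, 0.84 without control 1) and miR-15b-5p at 0.92 (Spearman 0.87, 0.87 without control 1). Without controls 1 and 3, the 2 arrays farthest from the median of the mean profile, the other 4 correlations lay between 0.74 and 0.87.

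Of the 9 other strands of the same hairpins, miR-17-3p was the 1 detected on all arrays. Its level was −4.28, −4.32 and −4.17 on codonopsis arrays, −3.93, −4.001 and −3.96 on model arrays and −4.22, −3.95 and −3.98 on controls. All codonopsis arrays thus lay below all model arrays, as they did for 22.3% of all tested miRNAs. The log2 difference was −0.29 (SE 0.124, limma adjusted p = 0.447). miR-20a-3p was detected on 4 arrays, in all 3 groups, miR-18a-3p on control 1 only, and the remaining 6 strands on none.

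Besides miR-19b-3p and miR-92a-3p, which it shares with miR-17-92, the X-linked paralog cluster has 10 strands, of which miR-20b-5p was the 1 tested. It stood at −0.76, −0.85 and −0.83 on codonopsis arrays, at −0.56, −0.72 and −0.52 on model arrays and at −1.19, −0.72 and −0.59 on controls. Codonopsis again lay below model, as for 22.3% of all tested miRNAs, and control 1 was lowest. The differences were −0.22 for codonopsis minus model, 0.23 for model minus control and 0.02 for codonopsis minus control (SE 0.173 each), and none passed. Its within-array difference from miR-20a-5p, with which it shares all but 2 bases, moved only between 0.80 and 0.92 over the 9 arrays. Of its cluster, miR-18b-5p was detected on model 3 only, miR-18b-3p on control 1 only, miR-363-3p and the other strands of these 10 on none, and miR-106a-5p was not analysed here. The further seed relative miR-32-5p, of the miR-92 family, was detected on 8 arrays, and differed by −0.46 for codonopsis minus model, −0.02 for model minus control and −0.49 for codonopsis minus control (SE 0.368 each), none past the test.

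For miR-17-5p, whose dimmer probe had no spot well above background, the probes were not compared. The 2 probes of the 8 other members gave differences of the same sign for 6 of 8 in codonopsis minus model, for 6 in model minus control and for 5 in codonopsis minus control. The exceptions were miR-25-3p and miR-93-5p in all 3 comparisons and miR-19b-3p in the last. For miR-25-3p in model minus control, the brighter probe gave 0.18 and the dimmer −0.24, the widest gap of all at 0.42. In codonopsis minus model both probes of the other 6 of these 8 members were lower.

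**Figure D4:**
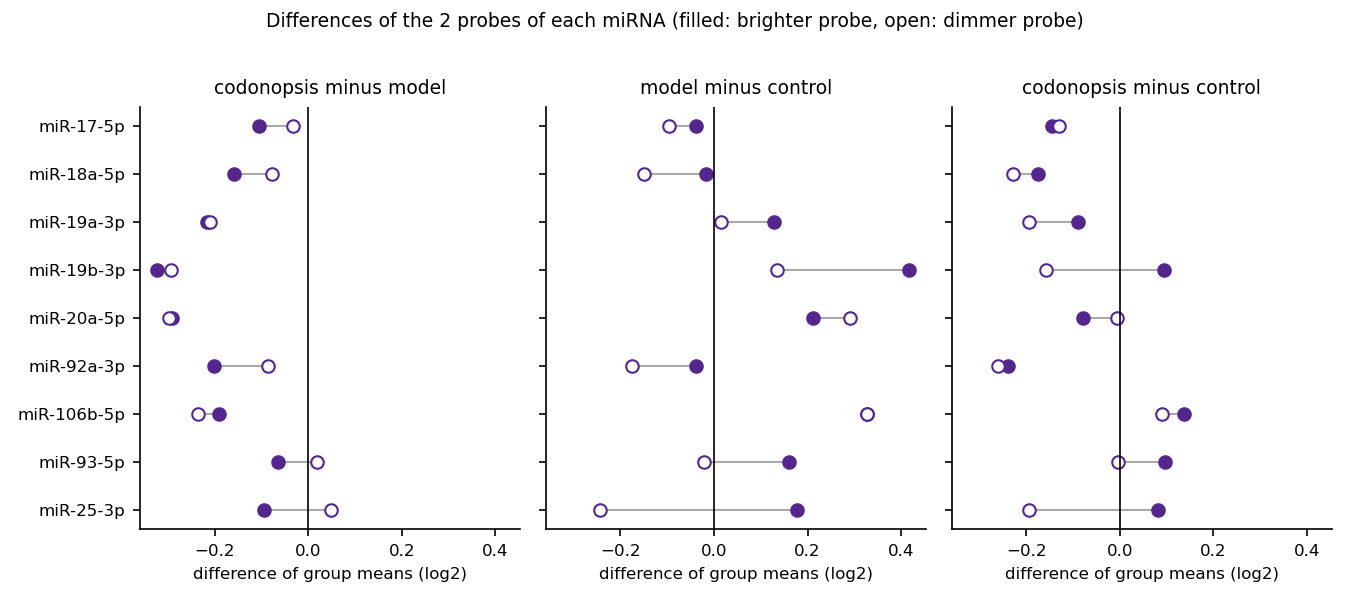
Difference of group means on the log2 scale (horizontal axis) from each of the 2 probes of the 9 miRNAs in the 3 comparisons, with filled points for the brighter and open points for the dimmer probe. For miR-25-3p and miR-93-5p the probes lie on opposite sides of 0 in all 3 panels, and in codonopsis minus model both probes of the others lie left of 0, where the dimmer probe of miR-17-5p, at −0.03, was not above background.

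Some scalings moved the members and all tested miRNAs by like amounts. With each array divided by its 75th percentile over all miRNAs, the median over all tested miRNAs was −0.47 for codonopsis minus model, 0.62 for model minus control and 0.18 for codonopsis minus control, and the members' medians were −0.54, 0.66 and 0.16. In the deposited log2 table the medians over all tested miRNAs were −0.17, 0.37 and 0.17 for the same comparisons, and the members' medians −0.13, 0.38 and 0.17. For codonopsis minus model the 2 medians thus moved in opposite directions from the −0.18 of the members and the −0.11 of all tested miRNAs. Quantile normalization did the same, with −0.10 for the members and −0.13 for all tested miRNAs, and gave 0.23 and 0.09 for model minus control. No member passed in any comparison under any of the 22 alternative settings.

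**Figure D5:**
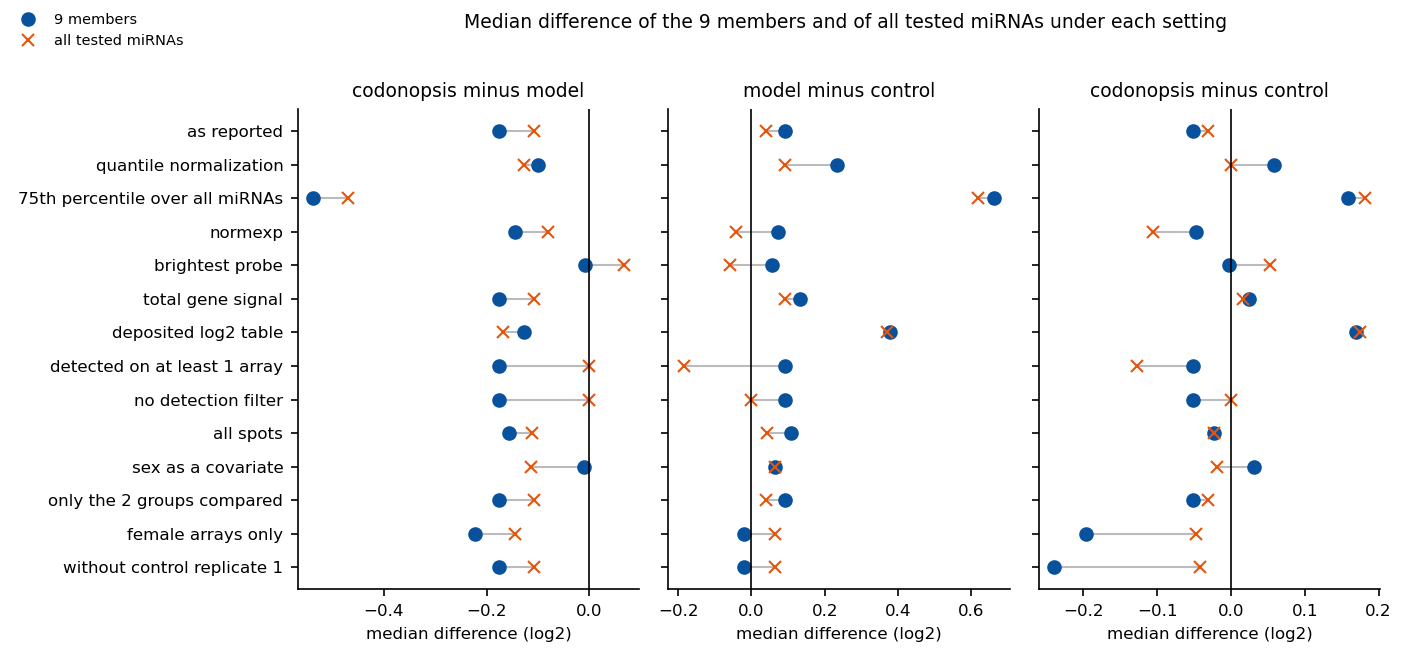
Median log2 difference (horizontal axis) of the 9 members (circles) and of all tested miRNAs (crosses) for each way of processing the arrays, 1 panel for each comparison. With the 75th percentile over all miRNAs both medians shift, to 0.66 and 0.62 for model minus control, while under quantile normalization and in the deposited log2 table they shift in opposite directions for codonopsis minus model, and the members' median for codonopsis minus model lies between −0.54 and −0.01 under every setting shown.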

How the data were processed

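Lung RNA of 9 mice was measured on 9 arrays, 1 per mouse. The scanner files hold fluorescence intensity on a linear scale, written per the file headers by version 11.5.1.1 of Agilent Feature Extraction, where the submitters' processing notes give 10.10. The deposited intensity used here is corrected for background and is not scaled between arrays. A deposited flag, also per the file headers, says whether each miRNA was detected. The series' deposited table holds log2 values, whose processing is not given in the sources used here. From the values, each column followed the log2 total intensity of its own array (r from 0.994 to 0.999), all columns shared 1 maximum, and 0.000001 stands where a miRNA was not detected. No column belonged to other samples.

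Spots marked as outliers or non-uniform, 2.86% to 3.28% per array, were left out. Intensity was averaged within each probe and next within each miRNA, divided by the array's 75th percentile over the miRNAs detected everywhere, floored at log2 −8 and log2-transformed. The 404 miRNAs that some group showed as detected on each of its 3 arrays entered a limma fit (version 3.58.1, R 4.3.3; lmFit and eBayes, two-sided) of all 9 arrays with group as factor and 6 residual degrees of freedom. P-values were Benjamini-Hochberg adjusted over these 404, with a threshold of 0.05, and measure the spread between these mice. The number of arrays limits the precision. The fit was tested on simulated data.

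Alternatives were other scalings (quantile, 75th percentile over all miRNAs), normexp with an offset of 50, the brightest probe, total gene signal, the deposited table, 3 detection filters, all spots, sex as a covariate, only the 2 groups compared, and each array left out. Normexp used the median spot signal, because the files hold no mean one. Female arrays alone were added after seeing the data. All 9 members are named, with the strands and seed relatives detected on all arrays and the 5 miRNAs most like the members' mean profile. Others are named where a count needed it. Members and lists were chosen with earlier results of these data known.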

Additional observations from a re-analysis of the deposited data

Results flagged for a closer look

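For 8 of the 9 members, codonopsis minus control had opposite signs in male and female mice, which is what drew attention. The share of all tested miRNAs with opposite signs in this split was not computed. The count can therefore not be read as a trait of the members. The single male control is control 1, the array that stood apart, so the male difference rests on it, and the difference between the sexes was not tested. In male mice (2 codonopsis, 1 control) the 8 members were higher in codonopsis lungs, and in female mice (1 codonopsis, 2 controls) they were lower. The gap, male minus female, was 0.96 on the log2 scale for miR-17-5p (0.44 in males and −0.52 in females), 0.78 for miR-106b-5p (0.59 and −0.19), 0.73 for miR-19b-3p (0.54 and −0.19) and 0.55 for miR-20a-5p (0.31 and −0.25). It was 0.50 for miR-25-3p, 0.42 for miR-18a-5p, 0.35 for miR-19a-3p and 0.23 for miR-93-5p. The exception was miR-92a-3p, the member for which control 1 was not the lowest of the 9 arrays.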

How the results depend on the processing

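No member passed under any of the 22 alternatives. The smallest adjusted p in limma was 0.310 for model minus control (miR-19b-3p without control 3), 0.109 for codonopsis minus model (miR-20a-5p without control 1) and 0.0633 for codonopsis minus control (miR-92a-3p with no detection filter). Of 591 member differences 535 kept their direction and 56 turned, and the cause of the turns was not tested. Part of the 535 could not have turned. The 3 detection filters and the fit of only the 2 groups compared leave each difference of group means as it was. So does leaving out an array of the group outside a comparison. The count of 535 therefore overstates how well directions held.

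With each array divided by the 75th percentile of all its miRNAs, the members' medians were −0.54 for codonopsis minus model, 0.66 for model minus control and 0.16 for codonopsis minus control. Turned in model minus control were miR-17-5p (0.56), miR-18a-5p (0.51) and miR-92a-3p (0.50), and in codonopsis minus control miR-17-5p (0.094), miR-18a-5p (0.015), miR-19a-3p (0.080) and miR-20a-5p (0.16). With quantile normalization the medians were −0.10, 0.23 and 0.058 in the same order. There miR-93-5p (0.099) and miR-25-3p (0.064) turned in codonopsis minus model, miR-17-5p (0.0027) and miR-18a-5p (0.18) in model minus control, and miR-19a-3p (0.057) and miR-20a-5p (0.058) in codonopsis minus control. In the deposited log2 table the medians were −0.13, 0.38 and 0.17. There miR-93-5p (0.075) and miR-25-3p (0.084) turned in codonopsis minus model, miR-17-5p (0.46), miR-18a-5p (0.61) and miR-92a-3p (0.082) in model minus control, and miR-18a-5p (0.16), miR-19a-3p (0.20), miR-20a-5p (0.091) and miR-92a-3p (0.067) in codonopsis minus control.

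With the brightest probe the medians were −0.0079, 0.055 and −0.0022, and miR-17-5p (0.077), miR-18a-5p (0.024), miR-93-5p (0.12) and miR-25-3p (0.087) turned in codonopsis minus model. In this setting the scaling percentile was also taken from the brightest probes. Under the reported scaling the same brighter probes of these members were lower, at −0.11, −0.16, −0.064 and −0.095 in that order. With total gene signal the medians for model minus control and codonopsis minus control were 0.13 and 0.024, and turned values were miR-17-5p (0.64) in the first and miR-17-5p (0.54) in the second. With all spots miR-17-5p (0.027) turned in model minus control. With sex as a covariate the medians for codonopsis minus model and codonopsis minus control were −0.0099 and 0.031. There miR-17-5p (0.044), miR-18a-5p (0.15) and miR-19a-3p (0.020) turned in codonopsis minus model, miR-19a-3p (−0.033) in model minus control, and miR-20a-5p (0.031) in codonopsis minus control. On female arrays alone, which leaves 1 codonopsis array assumed to vary like the others, the medians were −0.22, −0.020 and −0.20. There miR-18a-5p (0.012) turned in codonopsis minus model, miR-19a-3p (−0.091) and miR-25-3p (−0.020) in model minus control, and miR-19b-3p (−0.19), miR-106b-5p (−0.19), miR-93-5p (−0.013) and miR-25-3p (−0.20) in codonopsis minus control.

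Leaving out 1 array at a time gave medians of −0.19 to −0.14 for codonopsis minus model, −0.020 to 0.25 for model minus control and −0.24 to 0.061 for codonopsis minus control. In codonopsis minus model miR-93-5p ranged from −0.15 to 0.0012. In model minus control the ranges of members that turned were −0.25 to 0.12 (miR-17-5p), −0.28 to 0.25 (miR-18a-5p), −0.091 to 0.25 (miR-19a-3p) and −0.020 to 0.18 (miR-25-3p). In codonopsis minus control they were −0.35 to 0.014 (miR-17-5p), −0.41 to 0.12 (miR-18a-5p), −0.31 to 0.040 (miR-19a-3p), −0.24 to 0.20 (miR-19b-3p), −0.23 to 0.061 (miR-20a-5p), −0.092 to 0.26 (miR-106b-5p) and −0.088 to 0.11 (miR-25-3p).

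Over all tested miRNAs, the 4 called in limma for codonopsis minus control became 0 with quantile normalization, the 75th percentile over all miRNAs, normexp, detection on at least 1 array, no detection filter and female arrays alone, 1 with detection on all 9 arrays, and 2 with all spots. They numbered 3 to 6 in the remaining settings, and 0 to 46 with 1 array left out, the highest without control 1. For codonopsis minus model the count of 0 became 2 with total gene signal, 1 in the deposited table and 17 with only the 2 groups compared, and it was 0 to 35 with 1 array left out, the highest without control 1. For model minus control it was 0 under every setting, with 6 to 79 miRNAs at an unadjusted p under 0.05.

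With 3 arrays a group and the reported processing, the 95% intervals, each for a single member, allow changes of up to 1.75-fold to 1.83-fold. Other processing widens them in some settings and narrows them in others. With the 75th percentile over all miRNAs the members' SEs were 0.62 (miR-92a-3p) to 0.71 (miR-18a-5p), where the reported ones were 0.104 to 0.263. With normexp the members' SEs were 0.111 (miR-92a-3p) to 0.211 (miR-19b-3p). The filter for detection on all 9 arrays gives no value for miR-17-5p, nor for the median of the 9. No paired analysis was possible because the labels give no replicate numbers that pair mice.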
